A study of Drosophila melanogaster with 54 samples.

Results

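The Greek-letter trypsins of Drosophila melanogaster are 10 genes, alphaTry, betaTry, gammaTry, deltaTry, epsilonTry, zetaTry, etaTry, thetaTry, iotaTry and lambdaTry, and they were taken by symbol from a table of 13926 genes. They were chosen by symbol but selected on measured values of these samples, since betaTry, epsilonTry and lambdaTry stood far higher and gammaTry and deltaTry far lower in the transgene strains than in w1118. That contrast is therefore given as a description, with no test, and tests are kept for rearing temperature, copy number and the compartment of the transgene product. All 10 genes reached 1 TPM (a level corrected for transcript length and scaled to the same total in each library) in at least 3 libraries and were tested.

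Trypsins are serine proteases that cut proteins after lysine and arginine. In insects they are made as inactive precursors by enterocytes of the midgut, secreted into the gut lumen and activated there to digest dietary protein. The Drosophila genes of this family lie side by side, and several of them arose as duplicates of each other. Copies such as alphaTry and betaTry, or gammaTry and deltaTry, are known to be very similar in sequence.

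RNA came from whole males aged 10 days of 6 strains, each reared at 18, 25 or 29 °C, with 3 libraries in each of 18 groups. The 5 transgene strains carry FLucDM-GFP, a firefly luciferase mutated to misfold easily and fused to green fluorescent protein. Its product was directed to the cytoplasm (Cyto-FLucDM-GFP, 1 copy), to the nucleus through a nuclear localization signal (NLS-FLucDM-GFP, 1 copy or 2 copies) or to mitochondria (Mito-FLucDM-GFP, 1 copy or 2 copies). The control is w1118, described as isogenic and without the transgene, at the same temperatures. The sources used here give neither the promoter that drives the transgene, nor its insertion sites, nor the number of independent lines or flies behind each library, so an effect of 1 stock cannot be told apart from an effect of its transgene. Whether the 3 libraries of a group came from separate cultures is not given either, so p-values measure only the spread between these libraries.

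Each library listed between 11995 and 12158 genes at 1 TPM or more, and read depth is unknown because TPM keeps no counts. Markers of whole males were present, with testis genes summing to 1390.4 to 2376 TPM in transgene libraries and 1215 to 1580.2 TPM in w1118 libraries. Yolk protein and eggshell genes of females summed to 2.60 to 53.1 TPM in transgene libraries and 4.13 to 10.2 TPM in w1118 libraries, the highest in 1 library at 29 °C. Markers of other tissues also lay apart between genotypes in places. At 18 °C testis genes summed to 1670.0 to 2118 TPM in transgene and 1239 to 1276 TPM in w1118 libraries. The 3 muscle genes summed to 876 to 1383 TPM in transgene and 718 to 776 TPM in w1118 libraries. These sums rest on single genes. Over all temperatures the testis gene Mst84Db had medians of 849 TPM in transgene and 238 TPM in w1118 libraries. Medians of ProtA (164 and 223 TPM), dj (486 and 572 TPM) and ProtB (262 and 271 TPM) went the other way. Among muscle genes they were 366 and 216 TPM for TpnC4, 94.8 and 74.0 TPM for Act88F and 371 and 366 TPM for Mhc. The part of these tissues in the trypsin differences between transgene strains and w1118 was not tested. A list of 12 midgut genes that are no proteases summed to 386 to 545 TPM in transgene libraries and 449 to 556 TPM in w1118 libraries. In RNA from whole flies, fewer cells of a type and less RNA per cell cannot be told apart.

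All 10 genes lie on chromosome arm 2R of build BDGP6, between positions 11336840 and 11357537, a stretch of 20.7 kb. Each is a protein-coding gene of 1 exon, and their lengths run from 810 to 1071 bases. In order along the arm they are lambdaTry (11336840 to 11337791, plus strand), zetaTry (11339186 to 11340132), etaTry (11340513 to 11341423), thetaTry (11341714 to 11342760), alphaTry (11344260 to 11345119) and epsilonTry (11345237 to 11346066), these 5 on the minus strand. They are followed by betaTry (11346325 to 11347395, plus strand), gammaTry (11349061 to 11349870, minus strand), deltaTry (11355319 to 11356128, plus strand) and iotaTry (11356720 to 11357537, plus strand). Another 4 measured genes lie among them, namely the trypsin kappaTry next to lambdaTry, CG30031 and CG30025 between gammaTry and deltaTry, and CG13202. CG13202 overlaps the end of deltaTry on the opposite strand, and the library kit does not mark strand, so reads of the overlap cannot be told apart. A pair of INE-1 transposon copies annotated beside gammaTry and CG30031 was not analysed here.

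In every transgene library betaTry, epsilonTry and lambdaTry stood above all w1118 libraries, and gammaTry and deltaTry stood below all of them. These differences helped to choose the genes and are given without a test. Over all 12555 genes tested, 1.67% were higher and 1.43% lower in this non-overlapping sense, and nothing is read from the members' count of 5. The lowest, median and highest levels of betaTry were 1946, 2591 and 3922 TPM in the 45 transgene libraries and 36.5, 49.3 and 70.4 TPM in the 9 w1118 libraries. Its mean over transgene libraries was 52.1 times that over w1118 libraries, and by strain this ratio ran from 45.5 in Mito 2 copies to 59.4 in NLS 1 copy. The gene betaTry ranked 26th of 13926 genes by median TPM in transgene libraries and 3377th in w1118 libraries.

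The other trypsins that were higher had next to no signal in the control. The gene epsilonTry, which lies between alphaTry and betaTry, had 29.7, 189 and 302 TPM (lowest, median, highest) in transgene libraries and was listed at 0 in all 9 w1118 libraries. At the far end of the cluster, lambdaTry had 77.5, 111 and 161 TPM in transgene libraries and 0, 0.0780 and 0.654 TPM in w1118 libraries. All w1118 libraries were thus under 1 TPM for both genes. By library, lambdaTry in w1118 was 0.654, 0.243 and 0.166 TPM at 18 °C, 0.0799, 0.0780 and 0 TPM at 25 °C and listed at 0 in all 3 libraries at 29 °C. No fold is given against such levels.

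The genes gammaTry and deltaTry showed the opposite pattern. The gene gammaTry had 1.11, 9.56 and 23.5 TPM (lowest, median, highest) in transgene libraries and 416, 647 and 763 TPM in w1118 libraries. Its mean was 58.4 times higher in w1118 than in the transgene strains together, and 45.3 (Mito 2 copies) to 73.9 times (Mito 1 copy) higher than in single strains. The gene deltaTry had 0, 22.2 and 54.7 TPM in transgene libraries and 147, 167 and 303 TPM in w1118 libraries. By strain deltaTry averaged from 14.1 ± 8.78 TPM in Cyto to 37.0 ± 15.9 TPM in NLS 2 copies, against 197 ± 60.0 TPM in w1118 (SD, n = 9 each). In 4 transgene libraries, all at 18 °C (2 of Cyto and 2 of NLS 1 copy), deltaTry was listed at 0.

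**Figure D1:**
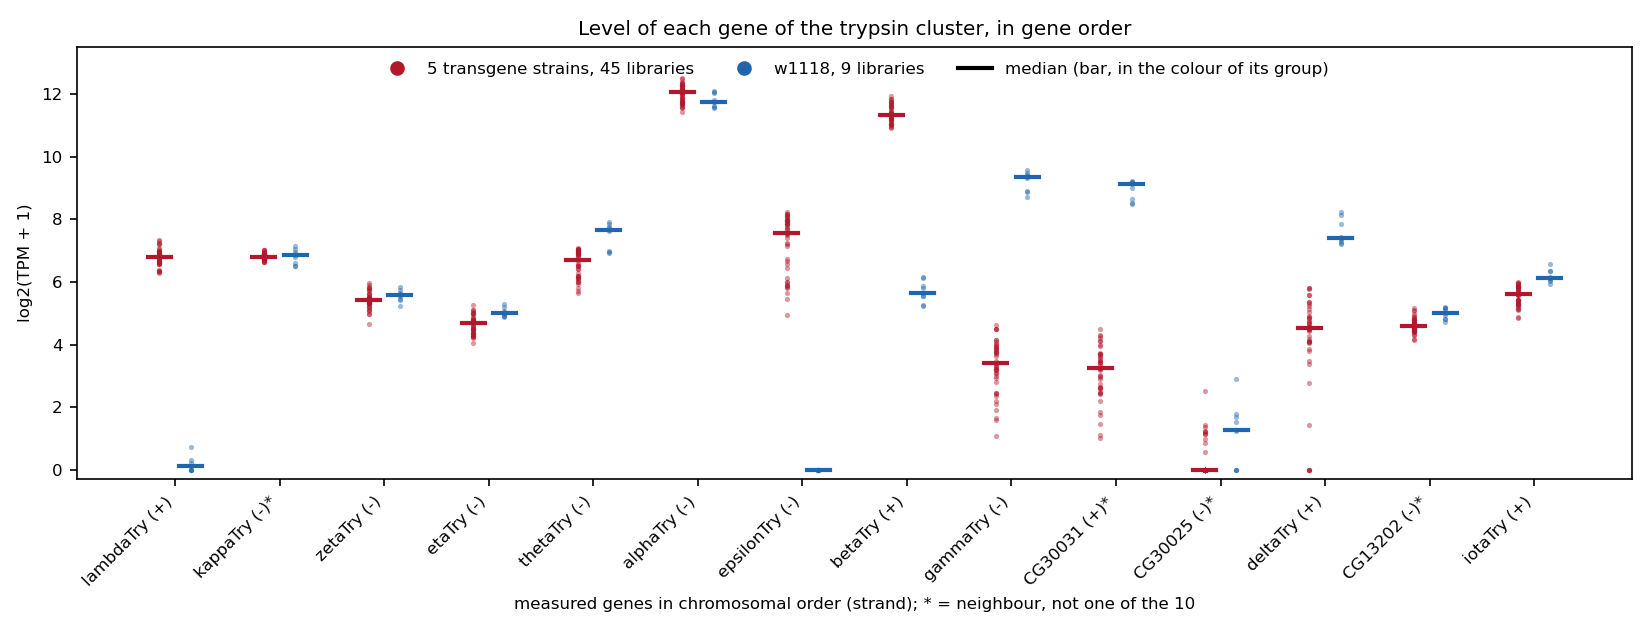
Level of the 14 measured genes of the cluster as log2(TPM + 1), in their order along 2R and labelled with their strand, for 45 transgene libraries (red, left of each pair) and 9 w1118 libraries (blue, right); points are libraries and bars are medians. The point clouds of lambdaTry, epsilonTry and betaTry (higher) and of gammaTry, CG30031 and deltaTry (lower) are separate, while kappaTry, zetaTry and alphaTry overlap between the groups.

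The most abundant member, alphaTry, differed little by comparison. It had 2730.3, 4271 and 5884 TPM (lowest, median, highest) in transgene libraries and 2985, 3460.2 and 4378 TPM in w1118 libraries. The groups overlapped at 18 °C (2730.3 to 4108 TPM in transgene libraries, 3445 to 3571 TPM in w1118 libraries) and at 25 °C (3737 to 5884 TPM in transgene libraries, 4194 to 4378 TPM in w1118 libraries). At 29 °C they were apart, at 3178 to 4953 TPM in transgene libraries and 2985 to 3122 TPM in w1118 libraries. By strain its mean over 9 libraries was highest in NLS 1 copy (4738 ± 764 TPM, SD) and lowest in Mito 2 copies (3453 ± 551 TPM), against 3616 ± 540.3 TPM in w1118.

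The trypsins thetaTry and iotaTry were lower in every transgene library than in every w1118 library of the same temperature. Averages of thetaTry were 98.1 ± 27.4 TPM in transgene libraries and 185 ± 48.5 TPM in w1118 libraries (SD, n = 45 and 9), and those of iotaTry were 47.2 ± 9.66 TPM in transgene libraries and 72.6 ± 10.5 TPM in w1118 libraries. Across temperatures both groups overlapped for both genes. For etaTry and zetaTry the groups lay closer. The gene etaTry averaged 24.3 ± 5.07 TPM in transgene libraries and 31.9 ± 3.26 TPM in w1118 libraries, and zetaTry 42.5 ± 7.79 TPM in transgene libraries and 46.6 ± 5.93 TPM in w1118 libraries. The libraries of etaTry overlapped at each temperature. Those of zetaTry overlapped at 25 and 29 °C and were apart at 18 °C, at 32.4 to 43.4 TPM in transgene libraries and 48.1 to 56.1 TPM in w1118 libraries.

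The order of the genes by median TPM, a length-corrected level, was not the same in both genotypes. In transgene libraries it ran alphaTry, betaTry, epsilonTry, lambdaTry, thetaTry, iotaTry, zetaTry, etaTry, deltaTry, gammaTry. In w1118 libraries it ran alphaTry, gammaTry, thetaTry, deltaTry, iotaTry, betaTry, zetaTry, etaTry, lambdaTry, epsilonTry. Within transgene libraries the ranges of neighbours in that order overlapped at each step except between betaTry and epsilonTry. Within w1118 the ranges of thetaTry and deltaTry, of iotaTry and betaTry, of betaTry and zetaTry, and of zetaTry and etaTry overlapped, those of lambdaTry and epsilonTry met at 0, and the other neighbours were apart.

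**Figure D2:**
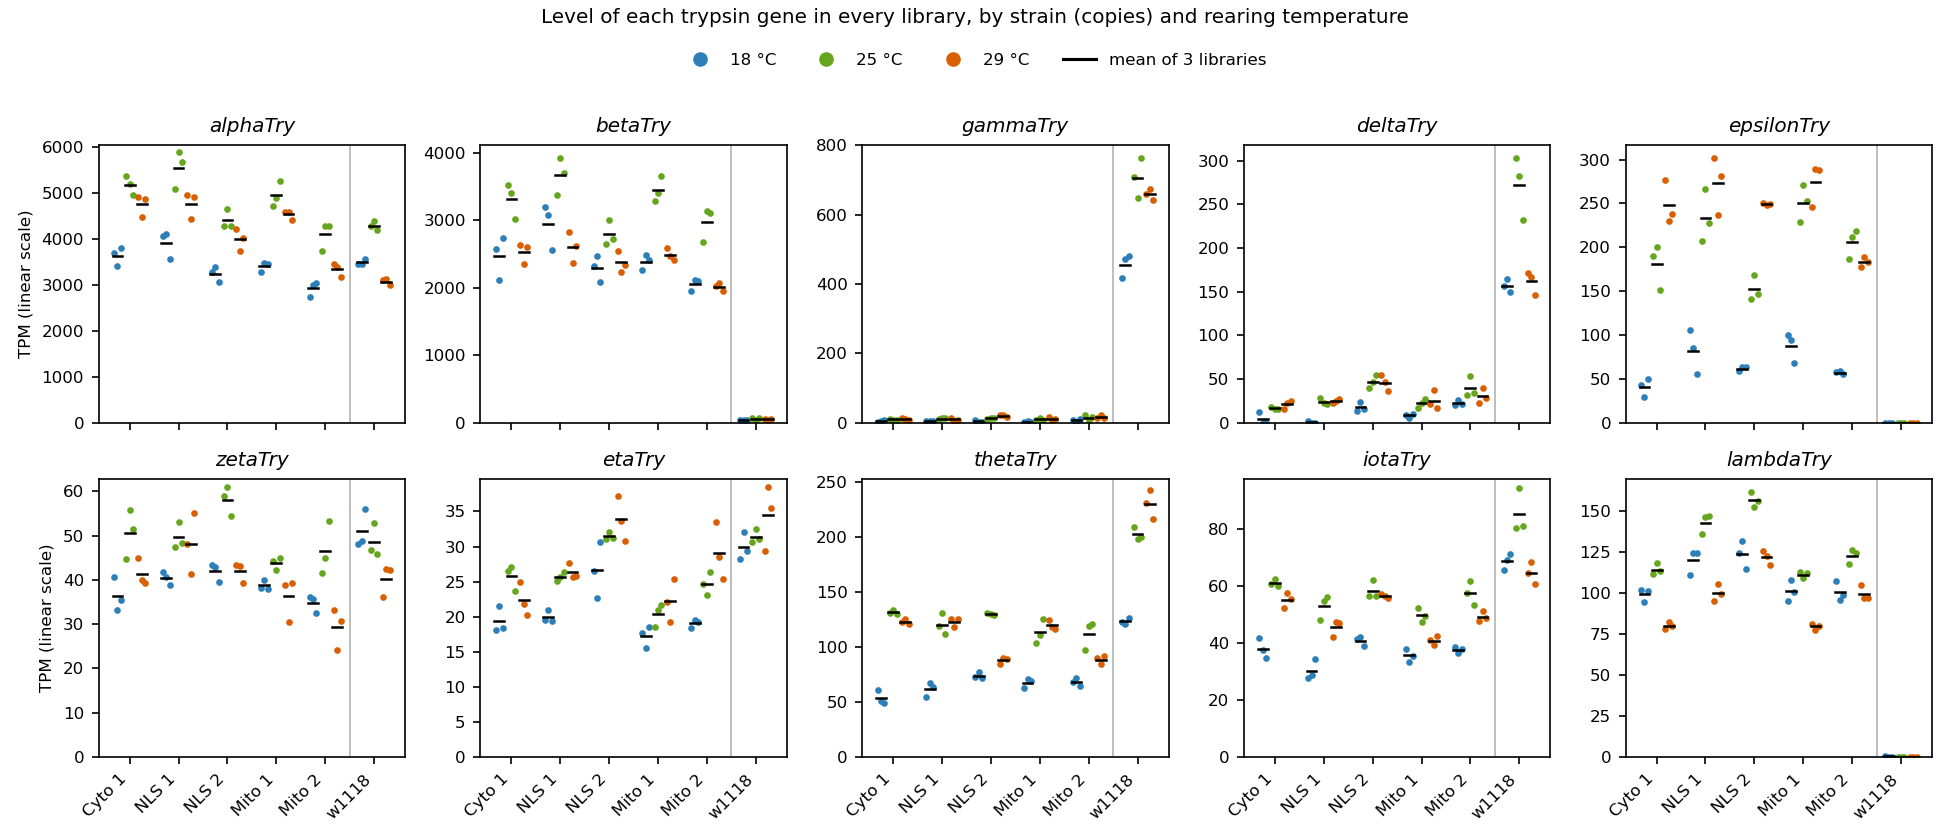
TPM (linear axis from 0, own scale per gene) of each of the 10 trypsin genes in all 54 libraries; strains run from Cyto 1 copy to Mito 2 copies with w1118 last, colours give the rearing temperature and black bars the mean of 3 libraries. The w1118 points of betaTry, epsilonTry and lambdaTry lie near 0, those of gammaTry and deltaTry lie far above all others, and most genes are lowest at 18 °C within a transgene strain.

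The 4 other measured genes of the cluster did not move as one block. The trypsin kappaTry, between lambdaTry and zetaTry, averaged 112 TPM in transgene libraries and 113 TPM in w1118 libraries. At 18 °C every transgene library (98.3 to 119 TPM) lay above every w1118 library (90.4 to 96.9 TPM), and at 25 and 29 °C they overlapped. The gene CG30031, next to gammaTry, averaged 8.99 TPM in transgene libraries and 503 TPM in w1118 libraries. The ratio of gammaTry to CG30031 was alike in both genotypes, with a median of 1.16 in transgene libraries (range 0.628 to 2.00) and 1.19 in w1118 libraries (range 1.14 to 1.30). How reads that match several near-identical copies were assigned is not given in the sources used here, so the single levels of gammaTry, CG30031, CG30025 and deltaTry, and of alphaTry and betaTry, are uncertain. The gene CG30025 was listed at 0 in 34 of 45 transgene libraries and 3 of 9 w1118 libraries, and CG13202 overlapped between groups at each temperature.

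The sum of alphaTry, betaTry, gammaTry, deltaTry and epsilonTry joins genes among which reads of near-identical copies may have been split. It is not free of that split, since TPM corrects for length and these 5 genes are 810 to 1071 bases long. The sum also changes with reads assigned to CG30031 or CG30025 and with any reads left out. It is described only, because the choice of genes rests on the same contrast. The lowest, median and highest sums were 4776, 7124 and 10109 TPM in transgene libraries and 3829, 4133 and 5368 TPM in w1118 libraries. At each temperature every transgene library lay above every w1118 library. The sum averaged 5935 ± 739 TPM in transgene libraries and 4144 ± 86.8 TPM in w1118 libraries at 18 °C (SD, n = 15 and 3), with a ratio of 1.43. The ratio of these means was 1.56 at 25 °C (8320.0 ± 970.2 TPM in transgene and 5328 ± 60.0 TPM in w1118 libraries) and 1.77 at 29 °C (6966 ± 859.6 TPM in transgene and 3941 ± 97.4 TPM in w1118 libraries). With CG30031 and CG30025 added, an alternative chosen after seeing the data, the ratios were 1.31 at 18 °C, 1.41 at 25 °C and 1.55 at 29 °C, and the groups still did not overlap at any temperature.

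The makeup of that sum differed more than its size. The share of betaTry was 33.2%, 38.7% and 43.3% (lowest, median, highest) in transgene libraries and 0.862%, 1.14% and 1.44% in w1118 libraries. The share of alphaTry was 55.2%, 58.8% and 63.0% in transgene libraries and 77.7%, 79.9% and 84.8% in w1118 libraries. Thus alphaTry was the larger part in both. Median shares of gammaTry were 0.124% in transgene libraries and 13.2% in w1118 libraries, those of deltaTry 0.300% in transgene and 4.18% in w1118 libraries, and that of epsilonTry was 2.39% in transgene libraries with w1118 listed at 0. Of all TPM, the sum took 0.478% to 1.01% in transgene libraries and 0.383% to 0.537% in w1118 libraries. Levels of betaTry were 0.527 to 0.784 of those of alphaTry in transgene libraries and 0.0102 to 0.0186 of them in w1118 libraries.

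**Figure D3:**
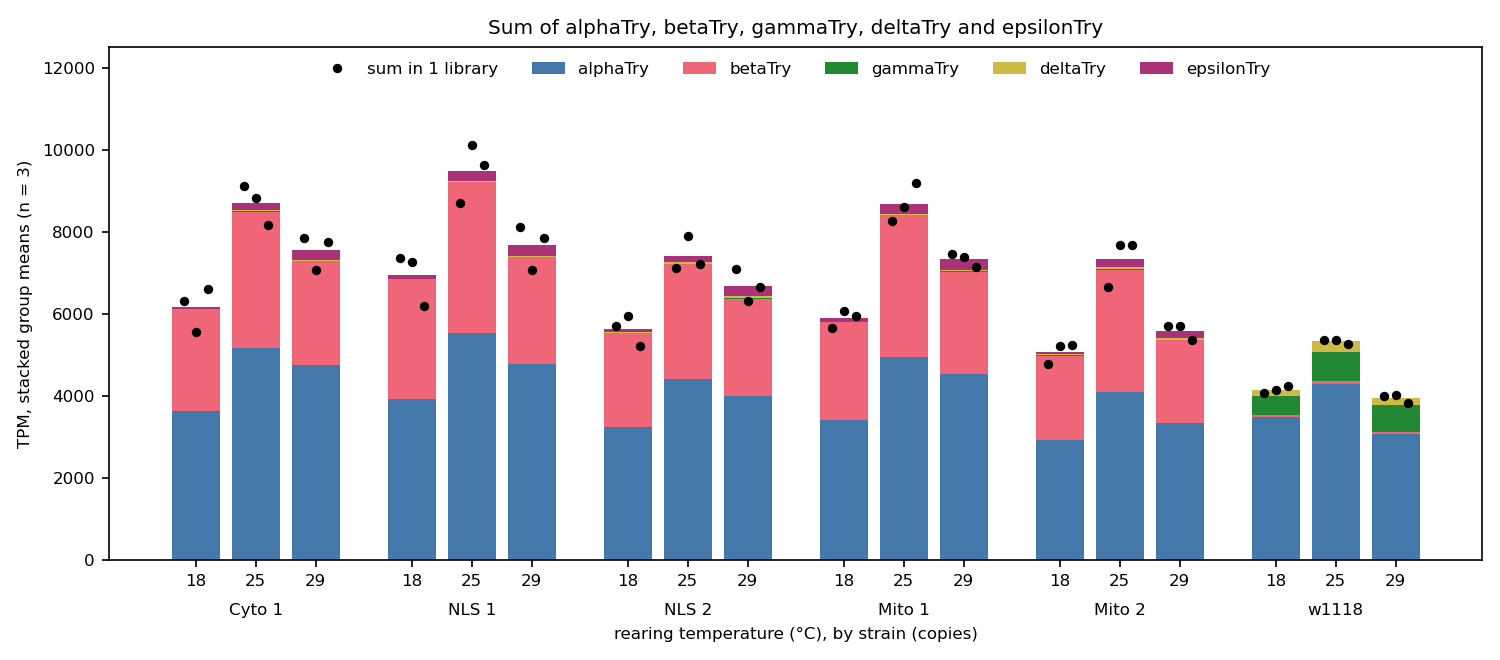
Sum of alphaTry, betaTry, gammaTry, deltaTry and epsilonTry in TPM for the 18 groups, with stacked bars for the mean of each gene (n = 3) and black points for the sum in single libraries; strains run from Cyto 1 copy to Mito 2 copies with w1118 last, and temperatures from 18 to 29 °C within each. The red betaTry part is nearly absent in w1118. Green gammaTry and yellow deltaTry are larger there, but together stay smaller than betaTry in the transgene strains. The sum peaks at 25 °C in all 6 strains.

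Rearing temperature was compared first at 25 against 18 °C. On the mean of the within-strain differences all 10 members were higher at 25 than at 18 °C (limma on log2(TPM + 1), adjusted p from 3.08e-05 for lambdaTry to 1.54e-26 for thetaTry), where 31.8% of all genes tested were called higher and 32.4% lower. The median log2 difference of the members was 0.51, against 0.00 over all genes tested. The largest differences were those of deltaTry (log2 1.89), epsilonTry (1.38), gammaTry (1.13) and thetaTry (0.86), with standard errors of 0.19, 0.06, 0.15 and 0.03. The smallest was that of lambdaTry (0.15), and it depended on the pseudocount (log2 -0.04, adjusted p = 0.629 with 0.1 TPM added in place of 1), since lambdaTry is near 0 in w1118. In the transgene strains alone lambdaTry was also higher at 25 °C (log2 0.24, SE 0.02, adjusted p = 7.3e-11). Single strains were not tested for this step, and w1118 did not share every rise. There zetaTry averaged 51.0 TPM at 18 °C and 48.5 TPM at 25 °C, and epsilonTry was listed at 0 at both. In the transgene strains alone the differences were log2 0.36 for zetaTry and 1.66 for epsilonTry.

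Between 25 and 29 °C most members turned down. On the mean of the 6 strains, lower at 29 °C were alphaTry (log2 -0.23), betaTry (-0.40), zetaTry (-0.33), thetaTry (-0.12), iotaTry (-0.22) and lambdaTry (-0.37), with adjusted p from 1.54e-14 (lambdaTry) to 0.000923 (thetaTry). Only epsilonTry was called higher (log2 0.23, SE 0.06, adjusted p = 0.000995), while gammaTry, deltaTry and etaTry were not called. These 6 lower and 1 higher of 10 stand beside 26.7% lower and 36.3% higher over all genes tested, and the members' median log2 difference was -0.17 against 0.02 over all genes. Most members thus had their highest mean at 25 °C. Single strains were not tested for this step, and they did not all move alike. Means of thetaTry at 25 and 29 °C were 202 and 229.6 TPM in w1118 and 120.2 and 122.8 TPM in NLS 1 copy. In NLS 2 copies they were 129.9 and 87.7 TPM. Means of epsilonTry in Mito 2 copies were 205.8 TPM at 25 °C and 183.8 TPM at 29 °C.

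Set against 18 °C, rearing at 29 °C left 7 members higher, 1 lower and 2 not called on the mean of the 6 strains. Over all genes tested 42.9% were higher and 34.9% lower, and the median log2 difference was 0.34 over the members and 0.03 over all genes. The gene epsilonTry gave the most precise of the large differences. Its libraries read 277, 230.1 and 238 TPM at 29 °C and 43.1, 29.7 and 49.5 TPM at 18 °C in Cyto, and 250.2, 248 and 249 TPM at 29 °C and 58.9, 63.5 and 63.2 TPM at 18 °C in NLS 2 copies. In all 5 transgene strains the 29 °C libraries lay above the 18 °C libraries, by log2 1.65 in Mito 1 copy to 2.60 in Cyto (SE 0.15, adjusted p from 1.41e-12 to 1.68e-18). In w1118 it was listed at 0 at each temperature.

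The gene thetaTry was higher at 29 °C in all 6 strains. In w1118 it read 230.1, 243 and 216 TPM at 29 °C and 123, 120.4 and 126 TPM at 18 °C (log2 0.89, SE 0.07, adjusted p = 1.28e-13). In Cyto it read 122, 125 and 121 TPM at 29 °C and 60.6, 50.9 and 49.1 TPM at 18 °C (log2 1.19, SE 0.07, adjusted p = 3.86e-17). The difference was smallest in the 2-copy strains, at log2 0.24 in NLS 2 copies (adjusted p = 0.00456) and 0.37 in Mito 2 copies (adjusted p = 4.65e-05). In these strains no library at 29 °C overlapped those at 18 °C.

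For alphaTry the direction at 29 °C differed between transgene strains and w1118. In NLS 1 copy its libraries held 4953, 4433 and 4904 TPM at 29 °C and 4066, 4108 and 3563 TPM at 18 °C, and in Mito 1 copy 4591, 4586 and 4413 TPM at 29 °C and 3285, 3484 and 3442 TPM at 18 °C. It was higher at 29 °C in the 5 transgene strains, by log2 0.19 in Mito 2 copies (adjusted p = 0.00995; 0.0828 without the first library at 18 °C and 0.0603 when only these 6 libraries were fitted) to 0.41 in Mito 1 copy (adjusted p = 7.31e-07). In w1118 it held 3097, 3122 and 2985 TPM at 29 °C and 3445, 3460.2 and 3571 TPM at 18 °C, a log2 difference of -0.19, adjusted p = 0.0114. With quantile normalization of the libraries that difference was 0.15 instead and was not called (adjusted p = 0.16). Its abundant partner betaTry was not called between 29 and 18 °C in any transgene strain (log2 -0.17 to 0.06), and in w1118, at 57.5, 45.6 and 54.9 TPM at 29 °C and 45.7, 37.1 and 36.5 TPM at 18 °C, it was higher (log2 0.40, SE 0.11, adjusted p = 0.00134).

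The low members gammaTry and deltaTry rose with temperature in most transgene strains but were measured with wide spread. In NLS 2 copies gammaTry read 23.5, 21.5 and 16.9 TPM at 29 °C and 7.06, 2.75 and 2.14 TPM at 18 °C, log2 2.23, SE 0.37, adjusted p = 2.28e-06. Its difference was called in the 5 transgene strains (log2 0.95 to 2.23), yet the call was lost without 1 library in 3 of them, with adjusted p of 0.115 without the first Cyto library at 18 °C (0.068 when only the Cyto groups were fitted), 0.176 without the first NLS 1 copy library at 29 °C and 0.177 without the second Mito 2 copies library at 18 °C. In NLS 1 copy it was also lost without any 1 of the 3 libraries at 18 °C (adjusted p 0.0504 to 0.0651), and in Mito 2 copies without the second at 29 °C (0.0656). In w1118, where gammaTry is high, it read 659, 674 and 642 TPM at 29 °C and 416, 471 and 479 TPM at 18 °C without overlap. That difference (log2 0.53, SE 0.37, adjusted p = 0.22) was not called with the spread shared over all groups, and was called when only the 6 libraries concerned were fitted (adjusted p = 0.000102).

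For deltaTry, Cyto libraries read 15.9, 22.5 and 24.9 TPM at 29 °C and 12.9, 0 and 0 TPM at 18 °C, and NLS 1 copy libraries 23.3, 25.3 and 27.7 TPM at 29 °C and 1.71, 0 and 0 TPM at 18 °C. The gene was called higher at 29 °C in Cyto (adjusted p = 4.7e-07) and NLS 1 copy (6.91e-10), where the size rests on libraries listed at 0. It was also called in NLS 2 copies (log2 1.35, adjusted p = 0.0155) and Mito 1 copy (1.42, adjusted p = 0.0122). Those calls were lost without the first NLS 2 copies library at 18 °C (adjusted p = 0.0638) or at 29 °C (0.056), and without the second Mito 1 copy library at 18 °C (0.0655) or at 29 °C (0.088), and both with a pseudocount of 0.1 TPM (0.18 and 0.154). It was not called in Mito 2 copies (log2 0.37, adjusted p = 0.529) nor in w1118 (0.04, adjusted p = 0.946), where libraries read 172, 167 and 147 TPM at 29 °C and 157, 164 and 149.5 TPM at 18 °C.

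Of the other members, iotaTry was higher at 29 °C in the 5 transgene strains (log2 0.19 in Mito 1 copy to 0.58 in NLS 1 copy) and not called in w1118 (-0.09, adjusted p = 0.297). In Mito 1 copy, at 40.9, 39.2 and 42.2 TPM at 29 °C and 37.9, 33.3 and 35.4 TPM at 18 °C, its call (adjusted p = 0.0229) was lost without replicate 2 (0.126) or replicate 3 (0.0505) at 18 °C or replicate 1 (0.0513) or 3 (0.0854) at 29 °C, and with quantile normalization (0.0521) or median-ratio size factors (0.0563). The gene etaTry was higher in NLS 1 copy, NLS 2 copies, Mito 1 copy and Mito 2 copies (log2 0.34 to 0.58) and not called in Cyto (0.20, adjusted p = 0.0919) or w1118 (0.19, adjusted p = 0.0943). Its calls were lost without the second NLS 2 copies library at 18 °C (adjusted p = 0.0596) and without the third Mito 1 copy library at 29 °C (0.0572).

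Mixed directions were seen for zetaTry and lambdaTry. The gene zetaTry was higher at 29 °C in NLS 1 copy (log2 0.24, adjusted p = 0.0463), lower in Mito 2 copies (-0.24, adjusted p = 0.0407) and in w1118 (-0.33, adjusted p = 0.0053), and not called in the other strains. Those calls were weak. The first was lost without any 1 of 5 libraries (adjusted p up to 0.309) and, with replicate number as a block, had adjusted p = 0.0507. In Mito 2 copies it was lost without the first (0.112) or second (0.108) library at 18 °C or the second at 29 °C (0.376), and in w1118 without the first at 29 °C (0.0513). The gene lambdaTry was lower at 29 °C in Cyto, at 78.2, 82.0 and 79.8 TPM against 102, 94.6 and 101 TPM at 18 °C (log2 -0.30, adjusted p = 0.00045), and also in NLS 1 copy (-0.26) and Mito 1 copy (-0.34). With a pseudocount of 0.1 TPM the differences stayed at log2 -0.31, -0.26 and -0.34, but the calls were lost (adjusted p = 0.14, 0.21 and 0.0986). Over the 5 transgene strains, fitted without w1118, lambdaTry was lower at 29 °C (log2 -0.19, SE 0.02, adjusted p = 1.46e-08). In the 2-copy strains it was not called (log2 -0.02 in NLS and -0.02 in Mito, adjusted p = 0.844 and 0.866). Its call in w1118 (-0.42, adjusted p = 3.08e-06) compares 3 libraries listed at 0 with 3 under 1 TPM.

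By strain, 6 members were higher, 1 lower and 3 not called in Cyto, beside 30.3% higher and 19.5% lower over all genes tested. The counts were 8, 1 and 1 in NLS 1 copy (24.7% and 27.8%), 7, 0 and 3 in NLS 2 copies (29.8% and 24.2%), 7, 1 and 2 in Mito 1 copy (26.0% and 22.9%) and 6, 1 and 3 in Mito 2 copies (32.3% and 21.9%). In w1118 they were 2, 3 and 5 (28.9% and 27.1%), and 2, 2 and 4 with a median of 0.12 without epsilonTry and lambdaTry, which had no w1118 library at 1 TPM. The median log2 difference of the members ran from 0.32 (NLS 2 copies) to 0.48 (NLS 1 copy) in the transgene strains and was 0.02 in w1118, and over all genes it ran from -0.01 to 0.05. The split of all calls moved by over 10 percentage points with scaling in 2 strains, with 60.8% of calls higher in Cyto as deposited and 47.3% with median-ratio size factors, and 59.6% in Mito 2 copies as deposited and 49.2% with quantile normalization. Smaller moves turned the majority in NLS 2 copies (55.2% as deposited, 49.3% with median-ratio size factors), Mito 1 copy (53.2%, and 48.1% with quantile normalization) and w1118 (51.6%, and 49.2% with quantile normalization).

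**Figure D4:**
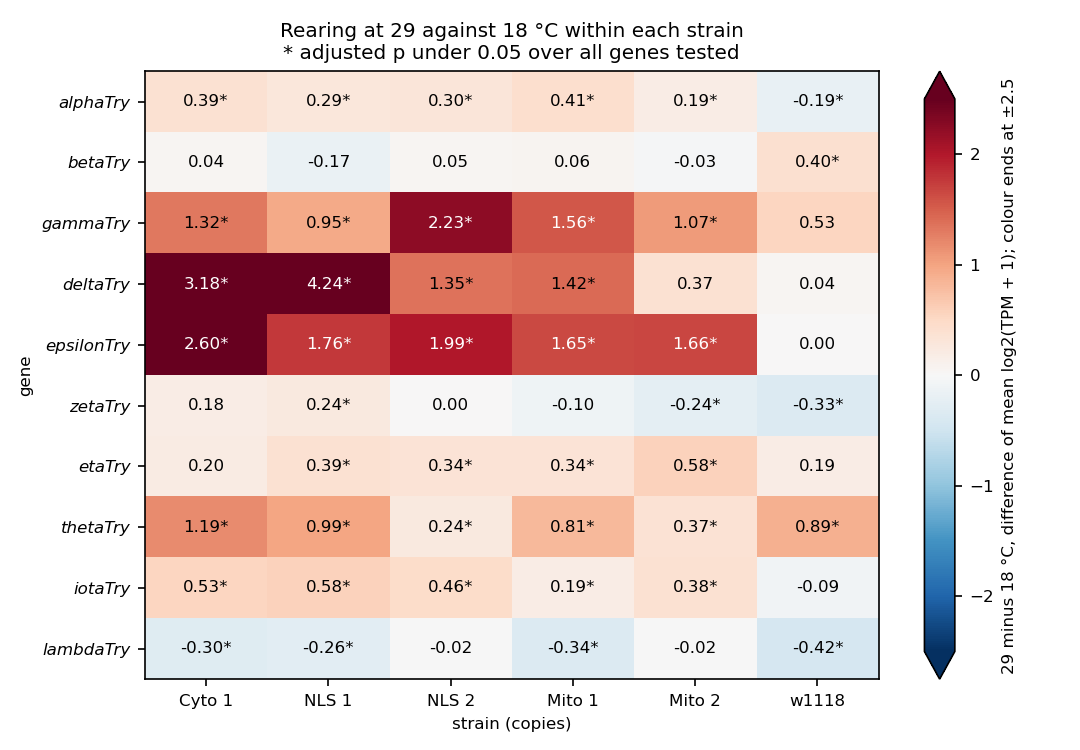
Difference of mean log2(TPM + 1) between 29 and 18 °C for each trypsin gene (rows) in each strain (columns, w1118 last), with 3 libraries a group; red is higher at 29 °C, the colour ends at ±2.5, and an asterisk marks an adjusted p under 0.05 over all genes tested. The epsilonTry row is red in all transgene strains, from 1.65 to 2.60, the thetaTry row is red in all 6 strains, and alphaTry is negative in w1118 alone (positive there with quantile normalization).

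Whether the temperature difference itself differed between the mean of the 5 transgene strains and w1118 was tested as an interaction. It was called for 7 members, 6 with a positive and 1 with a negative value, where 15.7% of all genes were positive and 15.9% negative, and all 7 kept their sign under each alternative run. The median interaction was log2 0.42 over the members and 0.03 over all genes. Without epsilonTry and lambdaTry, which had no w1118 library at 1 TPM and passed the filter through the transgene strains, 4 of 8 were positive, 1 negative and 3 not called (median 0.42), a set picked after the values were seen. As deposited 49.6% of calls were positive, and 36.5% with median-ratio size factors. For alphaTry the interaction was log2 0.50, SE 0.07, adjusted p = 4.63e-07, for iotaTry 0.52, SE 0.08, adjusted p = 2.63e-06 and for deltaTry 2.07, SE 0.52, adjusted p = 0.00235. The deltaTry interaction includes 4 transgene libraries at 18 °C listed at 0, in Cyto (log2 3.18 at 29 against 18 °C) and NLS 1 copy (4.24). In the other transgene strains its temperature difference was 0.37 to 1.42. For betaTry the interaction was negative (-0.41, SE 0.12, adjusted p = 0.00598), with w1118 called higher at 29 than at 18 °C and no transgene strain called, and it was lost with quantile normalization (-0.15, adjusted p = 0.294). For zetaTry (0.35, adjusted p = 0.0151) it was lost without the third w1118 library at 18 °C (adjusted p = 0.086) or the first at 29 °C (0.0954), and with median-ratio size factors (0.0525).

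The interactions of epsilonTry (log2 1.93, adjusted p = 2.35e-12) and lambdaTry (0.23, adjusted p = 0.0193) rest on w1118 libraries at or near 0, so that of epsilonTry restates the difference in the transgene strains. That of lambdaTry had adjusted p = 0.369 without the first w1118 library at 18 °C. The interactions of gammaTry (0.89, adjusted p = 0.0852), etaTry (0.18, adjusted p = 0.209) and thetaTry (-0.17, adjusted p = 0.0932) were not called.

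Flies with 2 copies of the transgene were set against flies with 1 copy over all temperatures, 9 libraries against 9, within the nuclear and within the mitochondrial strains. No library is shared between these comparisons. In both, alphaTry, betaTry and epsilonTry were lower and deltaTry, etaTry, iotaTry and lambdaTry were higher with 2 copies. Not all of these calls held at single temperatures, where fewer libraries were compared. For the nuclear form 4 members were higher, 3 lower and 3 not called, beside 12.8% higher and 15.4% lower over all genes. For the mitochondrial form 5 were higher, 4 lower and 1 not called, beside 18.9% and 23.3%. Median log2 differences of the members were 0.09 and 0.01, and those over all genes -0.01 and -0.02.

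Levels of alphaTry averaged 3877 ± 543 TPM with 2 copies and 4738 ± 764 TPM with 1 copy of the nuclear form (SD, n = 9 each, temperatures mixed), a log2 difference of -0.29, SE 0.04, adjusted p = 5.37e-08. For the mitochondrial form they averaged 3453 ± 551 TPM with 2 copies and 4294 ± 710.1 TPM with 1 copy (log2 -0.31, SE 0.04, adjusted p = 5.96e-09). At 25 °C the libraries did not overlap, at 4278, 4655 and 4286 TPM with 2 copies and 5074, 5884 and 5661 TPM with 1 copy of the nuclear form, and 3737, 4271 and 4288 TPM with 2 copies and 4711, 4883 and 5256 TPM with 1 copy of the mitochondrial form. With betaTry the differences were log2 -0.29, adjusted p = 0.000251 (nuclear) and -0.24, adjusted p = 0.0013 (mitochondrial). With epsilonTry they were -0.37, adjusted p = 0.000863 and -0.48, adjusted p = 1.6e-05. At 29 °C alone the nuclear differences were not called, at -0.13 for betaTry (adjusted p = 0.405) and -0.12 for epsilonTry (adjusted p = 0.603). At 18 °C alone the nuclear difference of epsilonTry was not called either (-0.36, adjusted p = 0.0991). The mitochondrial difference of betaTry was not called at 18 °C alone (-0.21, adjusted p = 0.234) or 25 °C alone (-0.21, adjusted p = 0.155). That of epsilonTry was not called at 25 °C alone (-0.285, adjusted p = 0.175).

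Among members that were higher with 2 copies, etaTry averaged 30.6 ± 4.12 TPM with 2 copies and 24.0 ± 3.19 TPM with 1 copy of the nuclear form (log2 0.34, SE 0.06, adjusted p = 1.14e-05). For the mitochondrial form it averaged 24.3 ± 4.92 TPM with 2 copies and 19.9 ± 2.89 TPM with 1 copy (log2 0.26, SE 0.06, adjusted p = 0.000316). The gene iotaTry gave log2 0.29, adjusted p = 4.11e-07 and 0.18, adjusted p = 0.000483. At 25 °C alone the nuclear differences of etaTry (0.28, adjusted p = 0.0627) and iotaTry (0.14, adjusted p = 0.251) were not called. At 18 °C alone the mitochondrial differences of etaTry (0.14, adjusted p = 0.455) and iotaTry (0.08, adjusted p = 0.585) were not called. The gene lambdaTry gave 0.15, adjusted p = 0.00436 and 0.15, adjusted p = 0.0032, and with a pseudocount of 0.1 TPM both stayed at 0.15 but were not called (adjusted p = 0.264 and 0.227). In the nuclear strains lambdaTry was not called at 18 °C alone (log2 0.04, adjusted p = 0.761) or 25 °C alone (0.13, adjusted p = 0.284). In the mitochondrial strains lambdaTry was at log2 -0.01 at 18 °C alone, and was not called at 25 °C alone (0.14, adjusted p = 0.168). For deltaTry the nuclear difference was 1.82, adjusted p = 1.55e-06, where 2 of 3 libraries with 1 copy at 18 °C were listed at 0. It was not called at 25 °C alone (0.93, adjusted p = 0.247) or 29 °C alone (0.82, adjusted p = 0.236). The mitochondrial difference of deltaTry was 0.82, adjusted p = 0.0155 (0.172 with a pseudocount of 0.1 TPM). This was called at no single temperature (adjusted p = 0.0701 at 18 °C, 0.252 at 25 °C and 0.646 at 29 °C).

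Called in the mitochondrial strains alone were gammaTry (log2 0.69, adjusted p = 0.00802) and thetaTry (-0.14, adjusted p = 0.00582, with 0.02 at 18 °C alone), while the nuclear strains gave 0.31, adjusted p = 0.287 and -0.04, adjusted p = 0.569. In the mitochondrial strains gammaTry was called at no single temperature (adjusted p = 0.0774 at 18 °C, 0.347 at 25 °C and 0.252 at 29 °C). There thetaTry was not called at 25 °C alone (log2 -0.02, adjusted p = 0.908). Whether the nuclear and mitochondrial differences themselves differ was not tested. The gene zetaTry was called in neither pair. Midgut genes that are no proteases did not share one direction, with 3 of 12 higher and 2 lower in the nuclear pair and 3 higher and 3 lower in the mitochondrial pair. Copy number cannot be told apart from other differences between the 1-copy and 2-copy stocks.

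**Figure D5:**
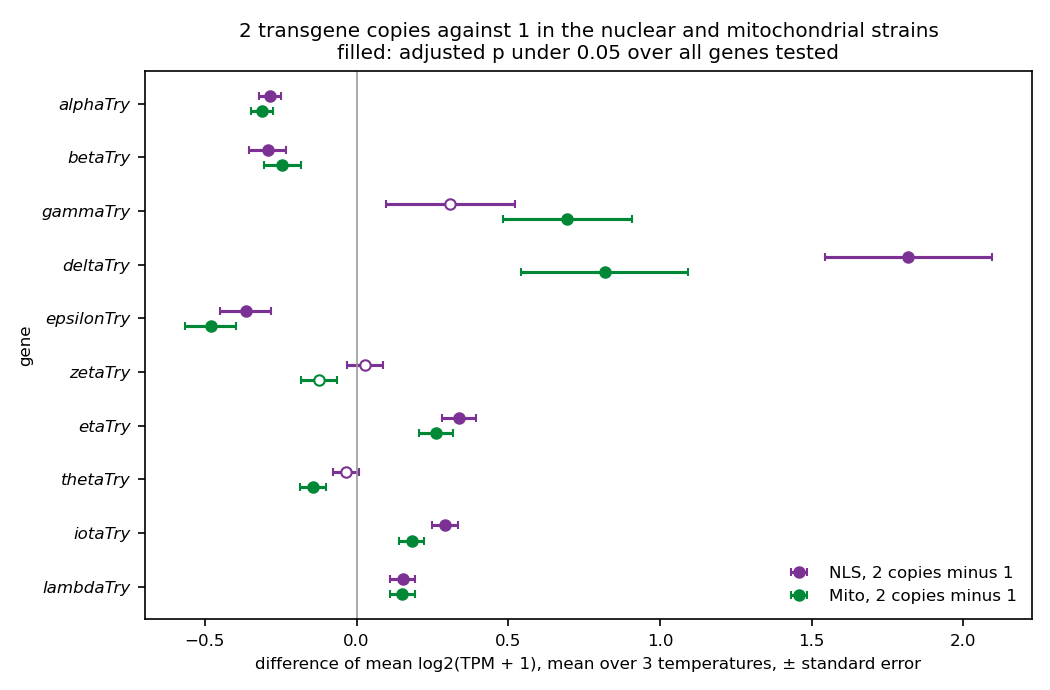
Difference of mean log2(TPM + 1), averaged over 3 temperatures, between strains with 2 copies and with 1 copy of the nuclear (purple) and mitochondrial (green) transgene for each trypsin gene; bars are standard errors and filled points have an adjusted p under 0.05 over all genes tested. The points of both comparisons lie left of 0 for alphaTry, betaTry and epsilonTry and right of 0 for gammaTry, deltaTry, etaTry, iotaTry and lambdaTry.

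The compartments to which the protein was sent were compared at equal copy number. These comparisons share libraries of the same strains, so their counts are given side by side. Nuclear against cytoplasmic form left 2 members higher, 1 lower and 7 not called (beside 9.51% higher and 22.6% lower over all genes), namely epsilonTry (log2 0.50, adjusted p = 1.39e-05), lambdaTry (0.30, adjusted p = 2.5e-07) and iotaTry (-0.27, adjusted p = 2.99e-06). Mitochondrial against cytoplasmic form gave 2 higher, 2 lower and 6 not called (9.69% and 16.8%), namely epsilonTry (0.57, adjusted p = 1.24e-06), deltaTry (0.83, adjusted p = 0.0209), iotaTry (-0.27, adjusted p = 3.06e-06) and etaTry (-0.16, adjusted p = 0.0277). The lower iotaTry and higher epsilonTry in both thus refer to the same Cyto libraries. At 29 °C alone epsilonTry was not called, at log2 0.13 (nuclear, adjusted p = 0.573) and 0.14 (mitochondrial, adjusted p = 0.583). At 25 °C alone the nuclear difference was 0.37 (adjusted p = 0.0712), while its other single-temperature calls held. At 18 °C epsilonTry averaged 40.8 TPM in Cyto, 82.3 TPM in NLS 1 copy and 87.6 TPM in Mito 1 copy. The mitochondrial difference of iotaTry was not called at 18 °C alone (log2 -0.09, adjusted p = 0.474). The call of deltaTry was lost without replicate 2 or 3 of Cyto at 18 °C, both listed at 0 (adjusted p = 0.0819 and 0.0792). It was lost without the second Mito library at 29 °C (0.0574) and when only the groups compared were fitted (0.128). Nor did the call hold at 25 °C alone (log2 0.36, adjusted p = 0.702) or 29 °C alone (0.19, adjusted p = 0.851). That of etaTry was lost without any 1 of 6 libraries (adjusted p 0.056 to 0.0873), namely Cyto replicate 2 at 18 °C, 2 at 25 °C and 1 at 29 °C, and Mito replicate 2 at 18 °C, 1 at 25 °C and 2 at 29 °C, and with quantile normalization (0.0611) or median-ratio size factors (0.0699).

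Mitochondrial against nuclear form was the contrast in which several members were lower. At 1 copy, alphaTry (log2 -0.14, adjusted p = 0.00263), zetaTry (-0.21, adjusted p = 0.00529), etaTry (-0.26, adjusted p = 0.000632) and lambdaTry (-0.31, adjusted p = 2.66e-07) were lower, deltaTry (0.84, adjusted p = 0.0173) was higher and 5 were not called, beside 11.8% lower and 19.2% higher over all genes. The gene deltaTry had the other sign at 25 °C alone (log2 -0.12) and 29 °C alone (-0.09), and was higher at 18 °C, where NLS 1 copy libraries held 1.71, 0 and 0 TPM. The gene betaTry (-0.15, adjusted p = 0.0594) was not called, but was called with median-ratio size factors (0.0302), when only the groups compared were fitted (0.0318), and (adjusted p = 0.0235 to 0.0396) without the third NLS library at 18 °C, the first at 25 °C or the second at 29 °C.

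At 2 copies 6 members were lower, none higher and 4 not called, beside 22.6% lower and 24.7% higher over all genes. The same 4 were lower, alphaTry by log2 -0.17, adjusted p = 0.000183, zetaTry by -0.36, adjusted p = 2.87e-06, etaTry by -0.33, adjusted p = 6.61e-06 and lambdaTry by -0.31, adjusted p = 9.26e-08. The 1-copy and 2-copy comparisons use different libraries. With quantile normalization alphaTry was called in neither (log2 -0.08, adjusted p = 0.21 at 1 copy and -0.06, adjusted p = 0.34 at 2 copies). At single temperatures the call of alphaTry was lost at 25 and 29 °C at 1 copy (adjusted p = 0.0635 and 0.626). At 2 copies it was lost at 18 and 25 °C (0.111 and 0.231). That of zetaTry was lost at 18 and 25 °C at 1 copy (0.721 and 0.228) and 18 °C at 2 copies (0.0755). That of etaTry was lost at 18 and 29 °C at 1 copy (0.158 and 0.18) and 29 °C at 2 copies (0.0844). The gene lambdaTry held 95.7, 105 and 126 TPM (lowest, median, highest) in Mito 2 copies and 114, 125 and 161 TPM in NLS 2 copies. Also called were iotaTry (-0.11, adjusted p = 0.0252) and thetaTry (-0.11, adjusted p = 0.0337). The call of iotaTry was lost without the second NLS library (adjusted p = 0.0621) or the third Mito library (0.0687) at 25 °C, and that of thetaTry without any 1 of 7 libraries (adjusted p 0.0501 to 0.135), and thetaTry was at log2 0.01 at 29 °C alone. At 18 °C alone neither thetaTry (adjusted p = 0.313) nor iotaTry (0.292) was called, and iotaTry was not called at 25 °C alone (0.865).

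The split of all calls moved by over 10 percentage points with scaling in 3 of the compartment comparisons. As deposited, with quantile normalization and with median-ratio size factors, 29.6%, 48.2% and 49.6% of calls were higher in the nuclear against the cytoplasmic form. For the mitochondrial against the cytoplasmic form these shares were 36.6%, 47.3% and 47.2%, and for the mitochondrial against the nuclear form at 1 copy 61.9%, 50.7% and 49.9%. Median log2 differences of the members were 0.08 (nuclear against cytoplasmic), -0.04 (mitochondrial against cytoplasmic), -0.15 (mitochondrial against nuclear, 1 copy) and -0.14 (2 copies), and those over all genes -0.03, -0.02, 0.01 and -0.01. No scaling moved the median of all genes by more than 0.1 on the log2 scale.

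Other digestive enzymes were counted beside the trypsins, to be read against all genes tested. Those were 31.8% higher and 32.4% lower at 25 against 18 °C, and 42.9% higher and 34.9% lower at 29 against 18 °C. Of 20 other digestive serine proteases, mostly the Jonah genes, 19 were tested. On the mean of the 6 strains 15 were higher at 25 than at 18 °C and none lower, with a median log2 difference of 0.44, among them Jon65Aii (1.40, adjusted p = 2.09e-20) and Jon25Biii (0.76, adjusted p = 5.62e-16). At 29 against 18 °C 13 were higher and 3 lower (median 0.56), and Jon74E fell by 1.21 on the log2 scale (adjusted p = 1.15e-21). The interaction between transgene strains and w1118 was positive for 10, such as Jon65Aiii (0.84, adjusted p = 1.06e-07) and Jon99Ciii (0.88, adjusted p = 2.36e-05), and negative for 1 (all genes 15.7% positive and 15.9% negative). The summed level of the 20 genes was 4476 to 7019.9 TPM in transgene libraries and 11889 to 13995 TPM in w1118 libraries at 18 °C. At 25 °C the groups overlapped, at 6815 to 11563 TPM in transgene libraries and 10334 to 11074 TPM in w1118 libraries. At 29 °C it was 6929.9 to 9731 TPM in transgene libraries and 10522 to 11299 TPM in w1118 libraries. This summed level was thus lower in the transgene strains at 18 and 29 °C without overlap, while the trypsin sum was higher. Single genes of the list went both ways. Over all temperatures medians in transgene and w1118 libraries were 1638 and 3168 TPM for Jon99Cii, 967 and 1667 TPM for Jon99Ciii and 188 and 576 TPM for Jon99Fii. They were 1324 and 911 TPM for Jon65Aiii, 209.7 and 107 TPM for Jon25Bi, 51.0 and 7.22 TPM for Jon65Aii and 52.8 and 15.6 TPM for Ser6.

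Of 22 digestive carbohydrases and lipases, 18 were higher and 3 lower at 25 than at 18 °C, and 16 higher and 5 lower at 29 than at 18 °C (medians 0.35 and 0.34). Examples at 29 °C were the maltase Mal-A4 (log2 1.72, adjusted p = 1.43e-32) and Mal-B2, which fell by 1.04 (adjusted p = 1.32e-25). With 2 copies against 1, 3 were higher and 11 lower for the mitochondrial form (all genes 18.9% higher and 23.3% lower) and 3 higher and 8 lower for the nuclear form (12.8% higher and 15.4% lower). Of 10 signalling and transcription factor genes linked to the control of digestive enzymes, such as the Activin-like ligand daw, its receptor babo and the sugar-sensing factors Mondo and sug, 3 were higher and 5 lower at 29 than at 18 °C. Among these foxo fell by 0.42 on the log2 scale (adjusted p = 6.81e-21) and REPTOR was higher by 0.31 (adjusted p = 4.91e-13). With 2 copies against 1 none of the 10 was higher and 3 (nuclear) and 6 (mitochondrial) were lower, beside the shares over all genes just given, Mondo by log2 -0.17 in both (adjusted p = 0.000674 and 0.000679). The factor GATAe is also among the midgut genes given next.

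Of 12 midgut genes that are no proteases 5 were higher and 3 lower at 25 than at 18 °C, and 6 higher and 3 lower at 29 than at 18 °C, with median log2 differences of 0.07 and 0.05. Over all genes the shares were 31.8% higher and 32.4% lower at 25 °C and 42.9% higher and 34.9% lower at 29 °C, near those of this list. The vitamin transporter gene Smvt was among the higher at 29 °C (log2 0.75, adjusted p = 3.6e-20) and the proton pump subunit Vha100-4 among the lower (-0.39, adjusted p = 4.98e-11). Enteroendocrine marker genes, 7 in number, had 5 higher and 1 lower at 29 than at 18 °C. The summed level of the midgut genes at 18 °C was 386 to 486 TPM in transgene libraries and 507 to 518 TPM in w1118 libraries. At 29 °C it was 409 to 513 TPM in transgene libraries and 449 to 471 TPM in w1118 libraries. Its genes did not go one way. Over all temperatures medians were lower in transgene than in w1118 libraries for Peritrophin-15a (120 and 195 TPM), Mur29B (24.4 and 38.2 TPM) and cad (29.7 and 34.1 TPM). They were not lower for mex1 (35.5 and 34.5 TPM), Myo31DF (36.7 and 34.7 TPM), Myo61F (92.1 and 91.2 TPM) and Smvt (52.4 and 45.6 TPM). With 2 copies against 1 the enteroendocrine genes had 3 higher and none lower (nuclear) and none higher and 2 lower (mitochondrial). Over all genes these shares were 12.8% higher and 15.4% lower (nuclear) and 18.9% higher and 23.3% lower (mitochondrial), and nothing is read from so few genes. The part of midgut content in the trypsin differences was not tested.

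The genes whose pattern was most like each member were found by Pearson's r over the 18 group means of log2(TPM + 1), as a description. For gammaTry they were its neighbour CG30031 (r = 0.998) and CG2617 (0.976), for betaTry CG32641 (0.991) and CG31683 (0.99), and for lambdaTry CG45492 (0.995) and CG31683 (0.993). CG31683 had a median of 47.1 TPM in transgene libraries and 0.115 TPM in w1118 libraries. For epsilonTry they were CG31776 and CG43110 (0.976 each). These 4 members differ by genotype, and so do the genes most like them. For the other members r was lower, as for thetaTry with eIF3j (0.947) and RpS15Ab (0.913), alphaTry with CG33080 (0.938) and SPR (0.933), etaTry with CG44251 (0.919) and CG33306 (0.898), and deltaTry with His2Av (0.904) and CG8785 (0.9). The genes iotaTry (Tfb1 0.875, CG7631 0.872) and zetaTry (MSBP 0.873, Vha100-5 0.856) came last. The sum of 5 was most like LTV1 (0.936), CG10680, Tango9 and bgm (0.913 each) and VhaAC39-1 (0.91).

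Spread within groups differed among members. The pooled standard deviation of log2(TPM + 1) over the 18 groups was 0.08 for alphaTry, 0.09 for lambdaTry, iotaTry and thetaTry, 0.13 for betaTry, zetaTry and etaTry, 0.19 for epsilonTry, 0.48 for gammaTry and 0.62 for deltaTry. For deltaTry it was 0.99 at 18 °C, against 0.26 at 25 °C and 0.35 at 29 °C. Tests of gammaTry and deltaTry therefore had the widest errors of the family.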

How the data were processed

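RNA of whole males (54 libraries, 18 groups of 3) had been extracted with TRIzol and made into TruSeq RNA v2 libraries, per the labels' protocols. The authors deposited TPM, a level scaled by transcript length and library total, per gene and library. The submitters' processing notes name builds BDGP6 and dm6; the sources used here name neither aligner nor quantifier nor depth. TPM keeps no counts, so no counting interval is given.

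Of 13926 genes, the 12555 that reached 1 TPM in 3 or more libraries were tested with limma 3.58.1 in R 4.3.3 on log2(TPM + 1), which understates changes of low genes. The model held 18 group means, a trend of variance with level and 36 residual degrees of freedom. The 16 contrasts were two-sided, each with Benjamini-Hochberg adjustment over all genes tested and a threshold of 0.05; a gene is called higher or lower past it. The script was tested on simulated data. The same libraries enter several contrasts. Quantile normalization, median-ratio size factors (0.951 to 1.044), a pseudocount of 0.1 TPM, no filter, no variance trend, a replicate block, only the groups compared, no w1118 libraries, single temperatures and leaving out each library were tried.

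The members and the gene lists were chosen with earlier results of these data known. Besides the 10 members, the text names their measured neighbours in the cluster, the genes with the highest Pearson r to each member, and, per list, genes with the smallest adjusted p. A few values outside that rule were named after they were seen. Gene coordinates come from an annotation of BDGP6.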

Additional observations from a re-analysis of the deposited data

Results flagged for a closer look

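The temperature difference (29 against 18 °C) of 7 trypsins differed between the mean of the 5 transgene strains and w1118 by limma's test of the interaction. On the log2(TPM + 1) scale it was 0.50 for alphaTry, -0.41 for betaTry, 2.07 for deltaTry, 1.93 for epsilonTry, 0.35 for zetaTry, 0.52 for iotaTry and 0.23 for lambdaTry. The values of epsilonTry and lambdaTry rest on w1118 libraries listed at 0 or under 1 TPM, and those of deltaTry include 4 transgene libraries at 18 °C listed at 0.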

How the results depend on the processing

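Of 907 values of the followed member tests recomputed under an alternative, 827 kept direction and side of the threshold, as did 1995 of 2046 values with 1 library left out. Directions that turned were those of alphaTry, 29 against 18 °C in w1118, with quantile normalization (0.15), and of lambdaTry, 25 against 18 °C, with a pseudocount of 0.1 TPM (-0.041). At single temperatures, 18 °C alone turned thetaTry (0.016) and lambdaTry (-0.0072) for 2 copies against 1 of the mitochondrial form. Mitochondrial against nuclear form turned for deltaTry at 1 copy (-0.12 at 25 °C alone, -0.089 at 29 °C alone) and thetaTry at 2 copies (0.011 at 29 °C alone). The cause was not tested. Counts of called genes were smaller with fewer libraries, at 18 °C alone, 25 °C alone and 29 °C alone. For 2 copies against 1 they were 1580 at 18 °C alone and 1256 at 25 °C alone (nuclear, 3534 in all) and 1121 and 2409 (mitochondrial, 5295 in all). For nuclear against cytoplasmic form they were 2139, 2077 and 1679 (4034 in all), and for mitochondrial against cytoplasmic form 1651, 1534 and 1089 (3320 in all). For mitochondrial against nuclear form they were 1901 at 18 °C and 432 at 29 °C (1 copy, 3900 in all), and 1710 at 18 °C and 3027 at 25 °C (2 copies, 5939 in all). Replicate numbers did not pair the samples, since 1 of 36 pairs of groups had all correlations of same-numbered libraries above 0.1. With the replicate block, zetaTry in NLS 1 copy (log2 0.24, adjusted p = 0.0507) was the only followed member call lost. Levels near 0 TPM limit epsilonTry and lambdaTry in w1118 and deltaTry and gammaTry in transgene strains at 18 °C.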

Other observations

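Marker genes of other tissues were counted at 29 against 18 °C, where 42.9% of all genes tested were called higher and 34.9% lower, and with 2 to 4 tested genes a list these counts say little. All 3 accessory gland genes were lower at 29 than at 18 °C on the mean of 6 strains (median log2 -0.84), as were all 3 muscle genes (-0.74), while all 3 eye genes were higher (0.60), and so were both tested genes of the fat body (1.21) and the 3 tested female genes (0.84). Of 4 testis genes 1 was higher and 1 lower. Within the trypsin cluster kappaTry, which was not among the members, was higher at 29 than at 18 °C in w1118 (log2 0.36, adjusted p = 2.29e-06), and its interaction was -0.31 (adjusted p = 0.000388).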
